A study of Sesamum indicum with 195 samples.

Results

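The genes described here are 90 sesame genes whose transcript level in roots was raised by waterlogging and was back near the control a few hours after the water was drained. They were chosen from the deposited TPM values (a transcript level corrected for gene length and scaled to the same total in each sample) among 20271 genes in the table, of which 18178 had a mean of at least 1 TPM. For each gene, the mean of 3 replicates was written as log2(TPM + 1), and the control of the same genotype and time was subtracted. W is the average of this difference over both genotypes at 4, 8, 12, 16, 20, 24 and 32 h of waterlogging, and D the average at 40, 44 and 48 h, in drainage, without the wilting plants. A gene is a member if W was at least 1 and D was below 0.5. W was at least 1 in 413 of the 18178 genes (2.27%), of which these 90 met the limit on D and 323 did not.

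The plants were flowering sesame (Sesamum indicum) of Ezhi No.2 (EG), sensitive to waterlogging, and ZZM2541 (R2G), tolerant of it, grown in pots in a greenhouse with 3 seedlings to a pot. No plant carries a transgene, and each replicate is the root of a single plant from one of 3 pots, where the sources do not say whether a pot was used at more than one time. Pots stood in water for 36 h and were then drained for 12 h, while the control pots (CK) stayed at normal soil moisture. The 195 samples form 65 conditions of 3 replicates. In each genotype there are 3 samples at 0 h, which the labels mark as control, 30 of the control, and 45 of waterlogging, and drainage has 18 samples in R2G and 21 in EG. Of the latter, 3 are from plants labelled wilting at 48 h, which the study's methods describe as dead.

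As background, oxygen diffuses slowly through water, so that waterlogged roots become short of it. Plant cells then switch on fermentation and sugar breakdown, largely through ethylene response factors of group VII. These factors are destroyed through their N-terminal cysteine while oxygen is present, so their targets can go up when oxygen falls and down again when it returns. The reference table for these genes gives identifiers and positions but no descriptive names. No function is therefore assigned to any member, the level of known hypoxia genes and of root marker genes was not checked by name, and no sequences are shown.

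Depth cannot be read from TPM, so no counting interval is given. The number of genes at 1 TPM or more ranged from 17422 to 18746 per control sample, from 15580 to 17933 under waterlogging and from 16649 to 18130 in drainage. Stress samples at 6, 10, 14, 18 and 22 h, for which there is no control, stood apart from their neighbours in time for some of the members, as described further on. The choice of members used none of the samples at 0, 2, 6, 10, 14, 18, 22, 28, 36, 38, 42 and 46 h nor the wilting plants, and each test compares only those samples, while the spread behind its p-value is estimated over all 195.

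All 90 members are protein-coding genes in the sesame genome v1.0, and they lie on 14 linkage groups, with 12 on linkage group 6, 11 on linkage group 10 and 1 on an unplaced scaffold. Their mean over all samples ranged from 1.54 to 1925 TPM with a median of 50.7, against a median of 16.1 TPM over all genes tested. The median genomic span of a member was 2184.5 bases, and that of all genes tested 3615 bases. Together the members made up a median of 0.815% of all TPM in the control (0.577% to 1.70% per sample), 2.25% under waterlogging (1.33% to 3.12%) and 0.917% in drainage (0.596% to 1.61%). In bulk roots, a change in the share of cells of one type and a change in the RNA of each cell cannot be told apart.

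W and D chose the members and are given here as a description only. The extraction text in the labels speaks of 126 root samples and the methods of all 195. The number 126 is also that of the waterlogged and drained samples, without the control, the 0 h samples and the wilting plants. The sources leave unclear whether these others were extracted apart. The part of this in the differences from the control, from 0 h and in the wilting plants was not tested. W had a median of 1.17 and reached 2.64, and D had a median of 0.17 and a range from -0.89 to 0.50. Taken in EG alone, 77 members had a W of at least 1 (2.59% of all genes tested), and in R2G alone 72 (2.28% of all genes), with 59 in both. The stress value was above the control in all 14 comparisons for 48 members (3.41% of all genes). It was above by at least 1 in all 14 for LOC105161205 and LOC105166654, the members with the largest W.

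At the limits, the member with the smallest W was LOC105178113, at 1.0003, and the nearest gene left out was LOC105179162, at 0.9986. LOC105174783 and LOC105161147 followed inside and LOC105159903 and LOC105170666 outside. The member with the largest D was LOC105177414, at 0.4987, and the nearest gene left out was LOC105175226, at 0.5009. LOC105161839 and LOC105166863 came next inside that limit, and LOC105171455 and LOC105160593 outside. The list is thus cut from a continuous range, and its length moves with the processing. With samples rescaled by the median of their gene-wise ratios to the average sample (median-ratio scaling), 399 genes met the rule, all 90 members among them.

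**Figure D1:**
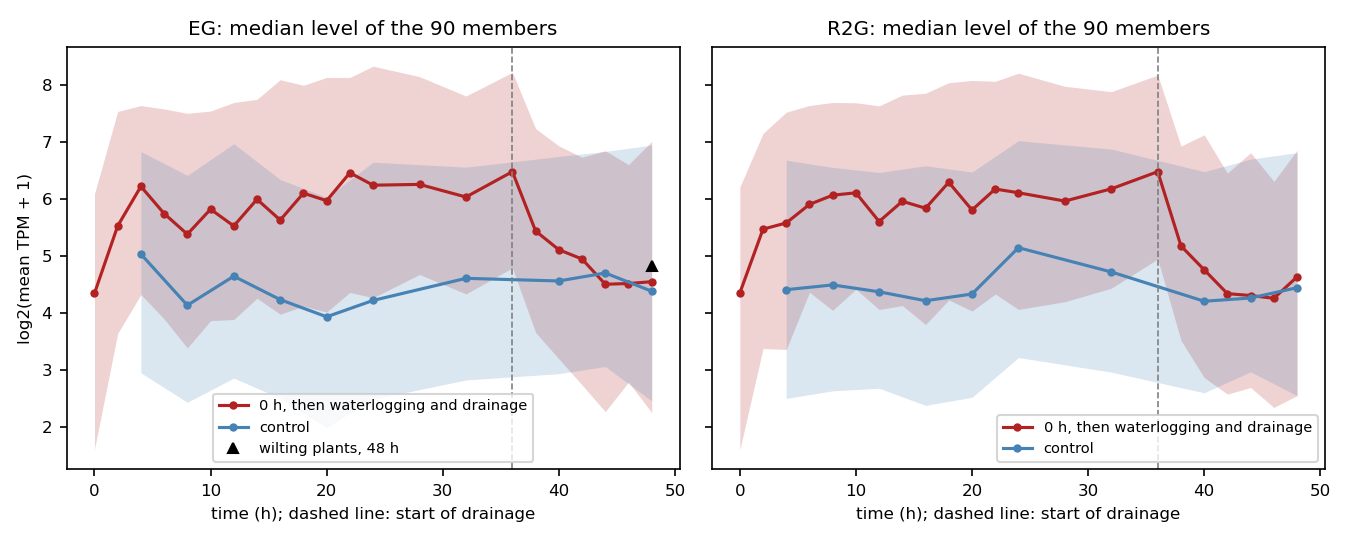
Median level of the 90 members as log2(mean TPM + 1) against time in hours, in EG (left) and R2G (right). Red points are 0 h and the stress series, blue points the control, and bands cover the middle of the members from the lower to the upper quartile. The red median rose from 4.34 at 0 h to 6.47 at 36 h in both genotypes and was 4.51 in EG and 4.25 in R2G at 46 h.

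The difference from the control varied with time. Its median over the members in EG was 1.17 at 4 h, 1.06 at 8 h, 0.44 at 12 h, 1.42 at 16 h, 1.72 at 20 h, 1.65 at 24 h and 1.31 at 32 h on the log2 scale. In R2G these medians were 1.05, 1.05, 1.27, 1.42, 1.48, 1.15 and 1.21 in the same order. The lowest, at 12 h in EG, was a low point of that genotype only, with 17 members at least 1 above their control (1.7% of all genes), against 61 in R2G (3.46%). The waterlogged median in EG was 5.38, 5.52 and 5.62 at 8, 12 and 16 h. The control median of EG at these times was 4.13, 4.64 and 4.23, and at 4 h it was 5.03. At 10 and 14 h, which have no control, the waterlogged median in EG was 5.81 and 5.99, above that at 12 h. Why the difference was low at 12 h was not tested. A difference between the genotypes at 12 h was not tested. After drainage the medians of the difference were 0.41, 0.08 and 0.04 in EG and 0.44, 0.05 and -0.01 in R2G at 40, 44 and 48 h. Over all genes tested the corresponding medians lay between -0.60 and -0.11 under waterlogging and between -0.11 and 0.09 in drainage. The highest waterlogging time point was 22 h or later for 49 members in EG and 65 in R2G, and 36 h itself for 28 and 34. It was 10 h or earlier for 14 members in EG and 12 in R2G. Some of these highest points fell on times without a control that stood apart from their neighbours, as 18 h for 13 members in EG and 22 h for 20 in R2G. The rule's own times were included, and no share over all genes was taken.

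The members with the largest W differed in their course. LOC105161205, on linkage group 4 from 15062838 to 15063692, had from 4.92 to 25.5 TPM, with a median of 12.4, in the 42 control samples of the rule. In the 42 waterlogged samples it had from 29.0 to 154 TPM, with a median of 75.7. The ranges did not overlap, but W was computed from these same samples, so this only describes the choice. In drainage it was at a median of 12.5 TPM against 11.0 TPM in the control of the same times. Its highest waterlogging mean was 159 TPM at 36 h in EG and 137 TPM at 12 h in R2G, as the plot of 6 single genes shows.

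LOC105166654, on linkage group 7 from 8284034 to 8284822, went from a median of 26.9 TPM in control (10.3 to 68.6) to 143 TPM under waterlogging (65.6 to 271), with a small overlap. LOC105170701, on linkage group 9 from 5334691 to 5336092, went from 10.8 TPM (3.90 to 62.6) to 59.6 TPM (13.7 to 231), and here too the ranges overlapped. LOC105176284, on linkage group 13 from 3365955 to 3371578, had a median of 0.335 TPM in control (0 to 9.37) and 7.01 TPM under waterlogging (0.292 to 32.1), also with an overlap. The most abundant member, LOC105174827, on linkage group 12 from 596120 to 598093, had a median of 620.1 TPM in control and 2054 TPM under waterlogging, and 433 against 425 TPM in drainage and its control. The others of the 15 largest W were LOC105162554, LOC105161839, LOC105164859, LOC105170954, LOC105156467, LOC105172599, LOC105157214, LOC105160941, LOC105175535 and LOC105171780, where W was at most 1.88.

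Some members were below their control in drainage. D was under 0 for 29 members and at most -0.5 for 7 (21.3% of all genes tested). The lowest were LOC105170954 at -0.89, LOC105160941 and LOC105175535, both at -0.81, and LOC105171718 at -0.74, followed by LOC105174133, LOC105165254 and LOC105164859. LOC105170954, on linkage group 9 from 7006057 to 7006815, had a median of 338 TPM under waterlogging and 88.9 TPM in its control, but 70.7 TPM in drainage (25.1 to 131) against 124 TPM in the control of those times (52.0 to 225). The drained and control samples overlapped.

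**Figure D2:**
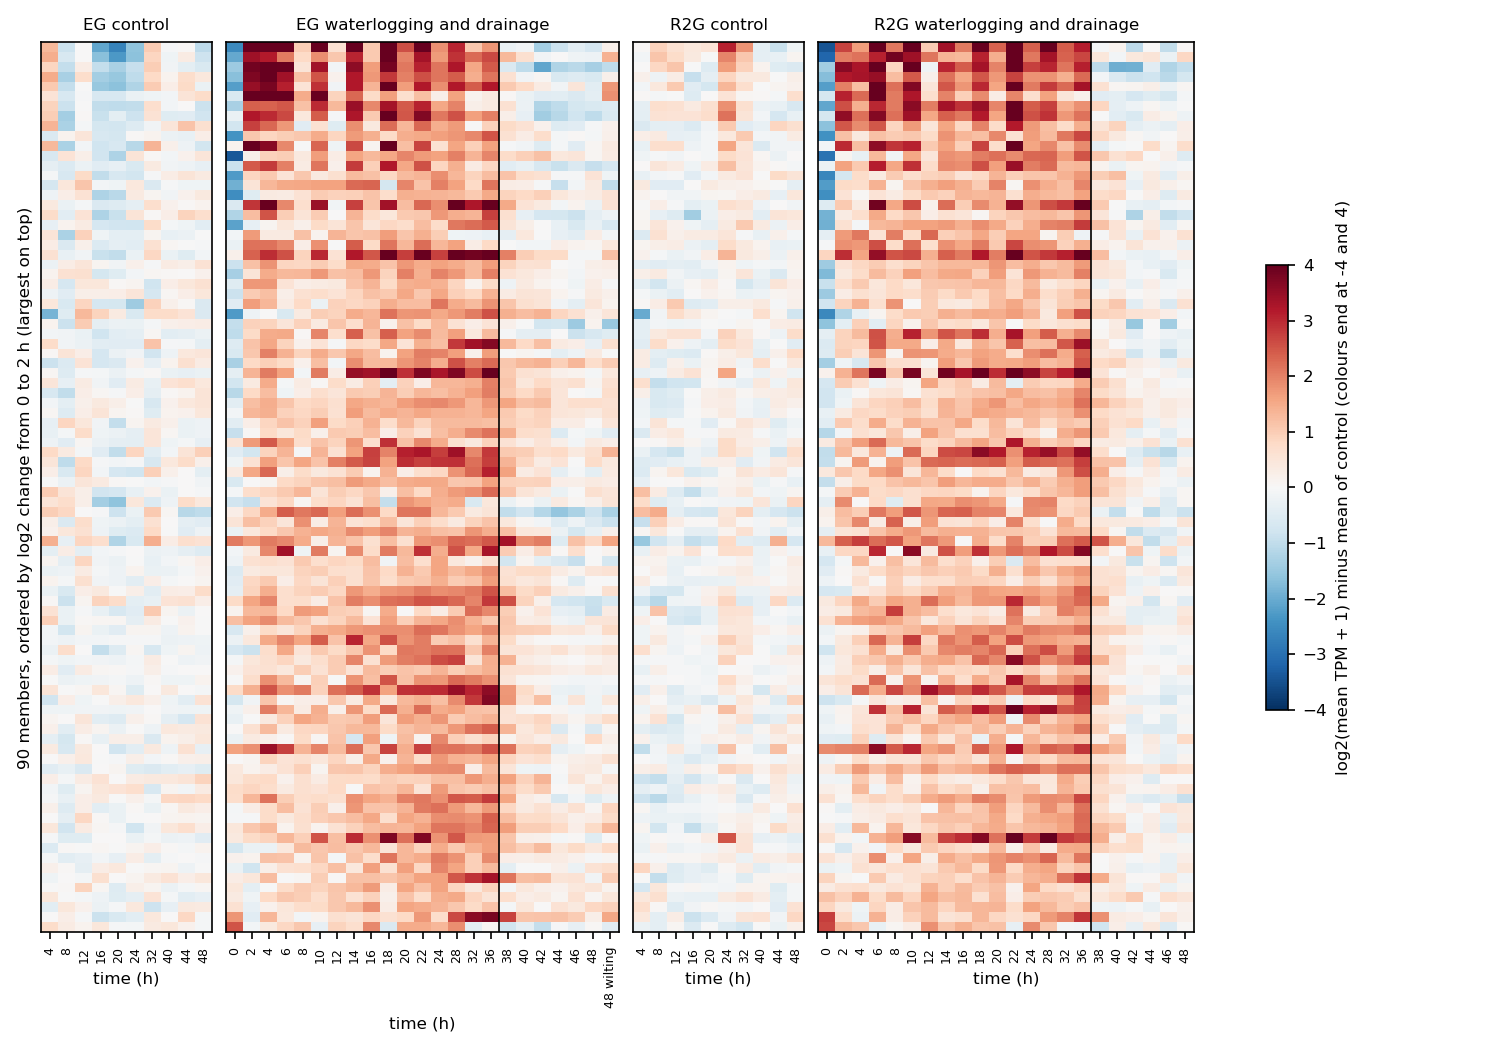
Levels of the 90 members (rows) in every condition (columns, time in hours), as log2(mean TPM + 1) minus the mean of the gene's 20 control conditions. Red is above and blue below the control mean, colours end at -4 and 4, and the black line marks the start of drainage. Rows are ordered by the change from 0 to 2 h, with LOC105172599 on top. The columns pale to the right of the line, and at the top alternate columns of the waterlogging series are darker.

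The return at drainage was tested with samples that had no part in the choice of members, at 38 h, after 2 h of drainage, against 36 h, the last time point under water. Nearly all members were lower after these 2 h. Of the 90 members, 87 had a lower average over both genotypes and 50 were called lower by limma (6 against 6 samples, Benjamini-Hochberg adjusted p under 0.05 over all 18178 genes and a log2 fold change of at least 1 in size), whereas over all genes tested 4.55% were called lower. No member was called higher by limma, and 0 had an unadjusted p under 0.05 in that direction, against 20.7% of all genes called higher. The median change was -1.07 over the members and 0.34 over all genes on the log2 scale, with the middle of the members between -1.54 and -0.70. After median-ratio scaling these medians were -1.55 and -0.03, and 74 members were called lower (10.5% of all genes under that scaling). For 54 members all 6 samples at 38 h lay below all 6 at 36 h (5.75% of all genes). Since 38 h is also 2 h later in the day and neither time point has a control of its own, drainage and time of day cannot be told apart in this step.

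Of the 323 genes with W of at least 1 that stayed raised in drainage, 111 (34.4%) were called lower at 38 h, against 55.6% of the members. Their median change was -0.71. The members and these genes were separated by D, which was taken from drainage times soon after 38 h. A larger share called lower among the members is thus favoured by the choice itself, and the contrast is a description only.

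The largest fall was that of LOC105160941, on linkage group 4 from 13508246 to 13518258. It had 310, 269 and 272 TPM at 36 h in EG and 18.2, 59.8 and 25.3 TPM at 38 h. In R2G it had 640, 356 and 345 TPM and then 38.9, 14.7 and 19.6 TPM. The samples of 36 and 38 h were far apart in both genotypes, with a log2 change of -3.69 ± 0.36 (SE, limma adjusted p = 1.3e-17).

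LOC105176284 had 24.3, 18.9 and 27.2 TPM in EG and 58.8, 33.4 and 20.7 TPM in R2G at 36 h. After 2 h of drainage it had 1.24, 2.90 and 2.24 TPM in EG and 1.49, 1.32 and 0.826 TPM in R2G. Every drained sample was well below every waterlogged one, giving a log2 change of -3.50 ± 0.32 (SE, limma adjusted p = 1.9e-19).

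LOC105155570, on linkage group 2 from 7658962 to 7662379, fell from between 12.4 and 46.0 TPM to between 0.614 and 6.55 TPM (-2.83 ± 0.38 on the log2 scale, SE, limma adjusted p = 8.7e-11). LOC105172599, on linkage group 10 from 14828723 to 14829676, fell from between 27.0 and 142 TPM to between 6.47 and 17.1 TPM, with a log2 change of -2.60 ± 0.48 (SE, limma adjusted p = 6.8e-07). LOC105161899, on linkage group 5 from 3666280 to 3671157, fell from between 12.1 and 44.3 TPM to between 2.37 and 4.55 TPM (-2.56 ± 0.27 on the log2 scale, SE, limma adjusted p = 1.3e-15). In none of the 3 did the 6 samples of one time overlap those of the other. In all, 11 members fell by at least 2 on the log2 scale, among them LOC105170701, LOC105157214, LOC105174783 and LOC105156467. The share of all genes with such a fall was not taken.

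**Figure D3:**
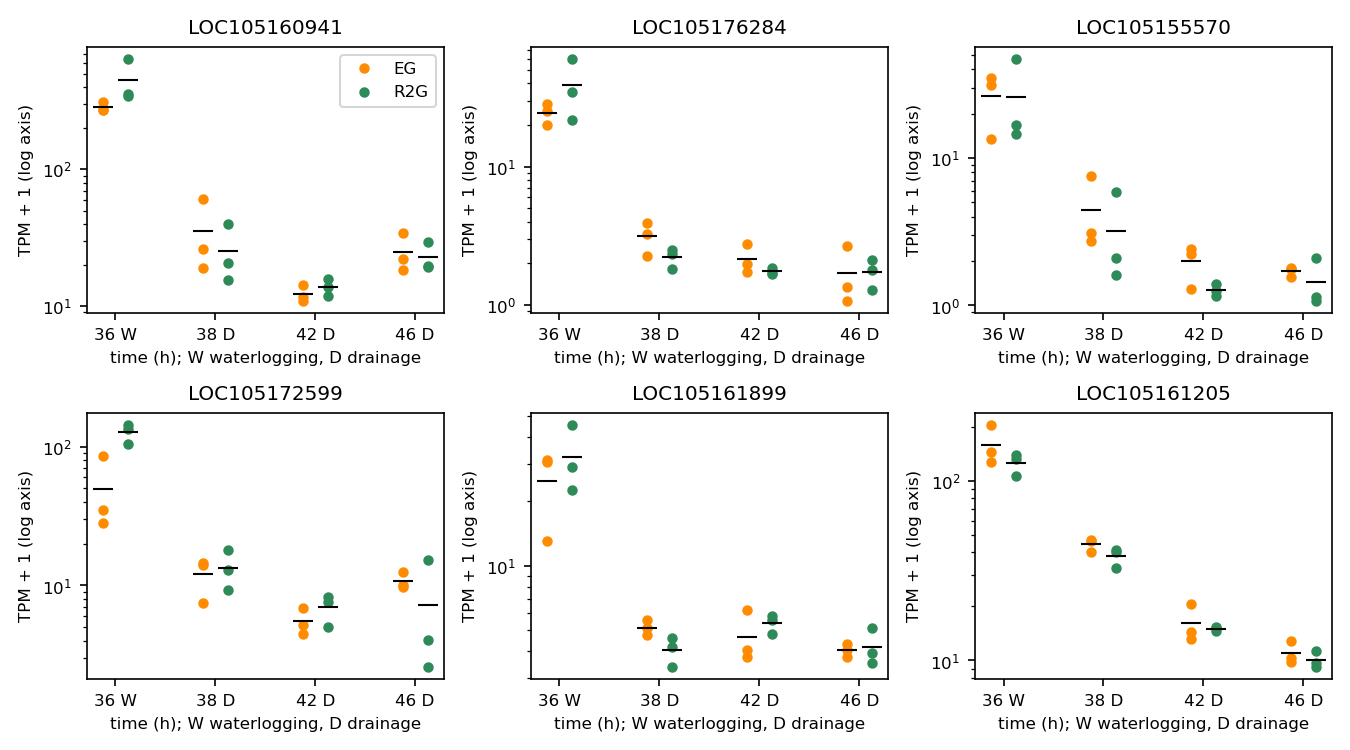
TPM + 1 on a log axis for each sample of 6 members at 36 h of waterlogging (W) and at 38, 42 and 46 h (D, drainage), with EG in orange, R2G in green and black bars for the mean of 3 replicates. All samples of LOC105176284 were at 18.9 TPM or more at 36 h and at 2.90 TPM or less at 38 h.

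A few members were not lower on average after 2 h, or hardly so. LOC105171780, on linkage group 10 from 3083801 to 3084932, had 132, 109 and 108 TPM at 36 h in EG and 139, 210 and 280 TPM at 38 h. In R2G it had 178, 65.9 and 97.2 TPM and then 156, 111 and 95.0 TPM. In EG all samples at 38 h were above those at 36 h and in R2G they overlapped, with an average change of 0.48 ± 0.50 on the log2 scale (SE, limma adjusted p = 0.40). It had a median of 47.4 TPM at 42 h and 20.0 TPM at 46 h, over 6 samples each. Its neighbour LOC105171781 changed by -0.03 ± 0.23 (SE, limma adjusted p = 0.92), while the other members above 0, LOC105156220 and LOC105170336, had changes of 0.04 and 0.07.

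The same step was then compared between the genotypes. By single genotypes, 45 members were called lower in EG (4.47% of all genes) and 56 in R2G (4.93%), of which 42 in both, where the share over all genes was not taken. A call in R2G only, as for 14 members, does not show a difference between the genotypes. The difference itself was called for 1 member by limma, LOC105166389, against 0.0495% of all genes called in its direction and 0.248% in the other. On linkage group 7 from 5939030 to 5956181, this gene had 10.1, 5.04 and 4.30 TPM in R2G at 36 h and 0.542, 0.527 and 0.330 TPM at 38 h, and in EG 0.930, 2.15 and 1.37 TPM and then 1.09, 0.608 and 0.424 TPM. It fell by 1.74 ± 0.44 more on the log2 scale in R2G than in EG (SE, limma adjusted p = 0.038). EG, lower at 36 h, also had less room to fall on this scale, and the part of this was not tested. The call was lost without any one of the replicates 1, 2 and 3, with adjusted p of 0.32, 0.38 and 0.10.

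**Figure D4:**
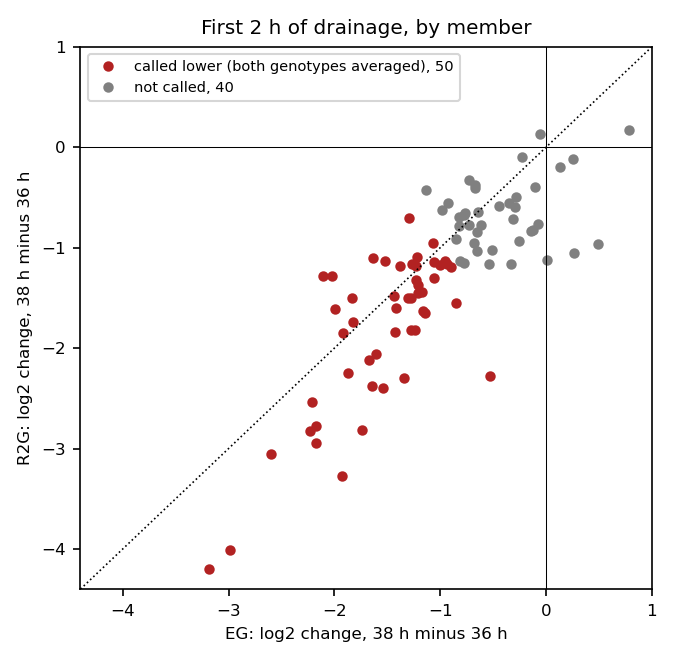
Log2 fold change from 36 to 38 h of each of the 90 members in EG (horizontal) and R2G (vertical), with the 50 members called lower on average over both genotypes in red and the other 40 in grey. The dotted line marks equal change. The points run along it down to -3.18 in EG and -4.20 in R2G, and 63 members lie below it, with the larger fall in R2G.

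Later levels are given as values. The median fall from 36 to 46 h was 1.73 on the log2 scale in EG and 2.10 in R2G. The steps from 36 to 38, from 38 to 42 and from 42 to 46 h had medians of -1.02, -0.34 and -0.42 in EG and -1.16, -0.66 and -0.14 in R2G. Among members that fell by at least 1 in all, 75 in EG and 81 in R2G, a median of 53.1% and 57.9% of the fall was done by 38 h. At 46 h the members were near their level at 0 h, with a median difference of 0.27 in EG and 0.18 in R2G. By that time 19 members in EG and 17 in R2G were still at least 1 above 0 h (6.68% and 6.37% of all genes), and 6 and 5 at least 1 below (11.3% and 10.7%).

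The start of waterlogging was tested from 0 to 2 h, again with samples outside the rule. As W is taken from 4 h on, a rise by 2 h is favoured by the choice of members here too. By limma 39 members were called higher at 2 h (6 against 6 samples, 6.3% of all genes), 2 were called lower (23.1% of all genes) and 49 were not called. The median change was 0.88 over the members and -0.51 over all genes, or 1.37 and -0.04 after median-ratio scaling, under which 61 members were called higher (11% of all genes) and 2 lower (9.18%). For 42 members all samples at 2 h lay above all at 0 h (6.26% of all genes). Among the 323 genes that stayed raised in drainage, 151 (46.7%) were called higher, against 43.3% of the members. As with drainage, 2 h of water and 2 h of the day cannot be told apart here, since there is no control at 2 h. It is also unclear whether the 0 h samples were extracted apart from those at 2 h, and the part of this was not tested.

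For the 39 members called higher at 2 h, the median level at 0 h was 4.00 on the log2 scale, against 4.48 in the control at later times, whereas the 49 members without a call had 4.60 and 4.32. The 0 h samples enter the call itself, so a low level at 0 h favours a call and these levels are a description only. Of the 39, 25 were called lower at 38 h, and of the 49, 24 were. There were 24 members that rose by at least 2, a count for which no share over all genes was taken.

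LOC105172599 rose most. It had 0.209, 0.356 and 3.79 TPM at 0 h in EG and 0.370, 0.436 and 0.145 TPM in R2G. At 2 h it had 152, 286 and 249 TPM in EG and 55.9, 128 and 91.4 TPM in R2G. That is a log2 change of 6.44 ± 0.48 (SE, limma adjusted p = 5.2e-25). In its untreated control this gene also varied more than any other member, over a range of 5.75 on the log2 scale, from 1.27 TPM at 20 h in EG to 121 TPM at 24 h in R2G, where its replicates had 23.4, 59.1 and 281 TPM.

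LOC105161839, on linkage group 5 from 3181272 to 3182759, rose from between 0.470 and 11.9 TPM at 0 h to between 62.3 and 324 TPM at 2 h (5.60 ± 0.44 on the log2 scale, SE, limma adjusted p = 7.0e-23). LOC105160941, which also fell most at drainage, rose from between 16.1 and 21.3 TPM to between 489 and 920.4 TPM (5.14 ± 0.36 on the log2 scale, SE, limma adjusted p = 6.8e-27). LOC105170954 rose from between 25.6 and 47.3 TPM to between 840.3 and 1800.0 TPM, with a log2 change of 5.14 ± 0.31 (SE, limma adjusted p = 3.0e-32). LOC105157214, on linkage group 3 from 3993893 to 3996925, rose from between 0.052 and 0.271 TPM to between 18.6 and 63.8 TPM (4.93 ± 0.41 on the log2 scale, SE, limma adjusted p = 1.1e-21). In these 4 genes, as in LOC105172599, the samples of 0 and 2 h did not overlap. The 0 h samples were all below the later control medians, of 14.2 TPM in EG and 28.9 TPM in R2G for LOC105161839 and 31.1 and 52.7 TPM for LOC105160941. These medians were 98.6 and 101 TPM for LOC105170954 and 1.98 and 4.19 TPM for LOC105157214. How far the low level at 0 h enters these rises was not tested.

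The 2 members called lower at 2 h were high at 0 h. LOC105173041, on linkage group 10 from 17217433 to 17218946, had 17.8, 13.2 and 34.8 TPM at 0 h in EG and 3.51, 2.39 and 2.27 TPM at 2 h. In R2G it had 12.4, 12.2 and 48.6 TPM and then 8.52, 4.22 and 13.0 TPM, with an overlap of these groups. It showed a log2 change of -1.87 ± 0.25 (SE, limma adjusted p = 3.6e-11), and in the control from 4 h on none of its samples within the rule's waterlogging times was above 6.59 TPM.

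LOC105167831, on linkage group 8 from 7548842 to 7551852, had between 22.2 and 167 TPM at 0 h and between 7.11 and 19.4 TPM at 2 h (-1.85 ± 0.34 on the log2 scale, SE, limma adjusted p = 8.4e-07). It was highest late. Its mean was 159 TPM in EG and 82.2 TPM in R2G at 36 h, and at 38 h it was 72.7 and 39.2 TPM.

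**Figure D5:**
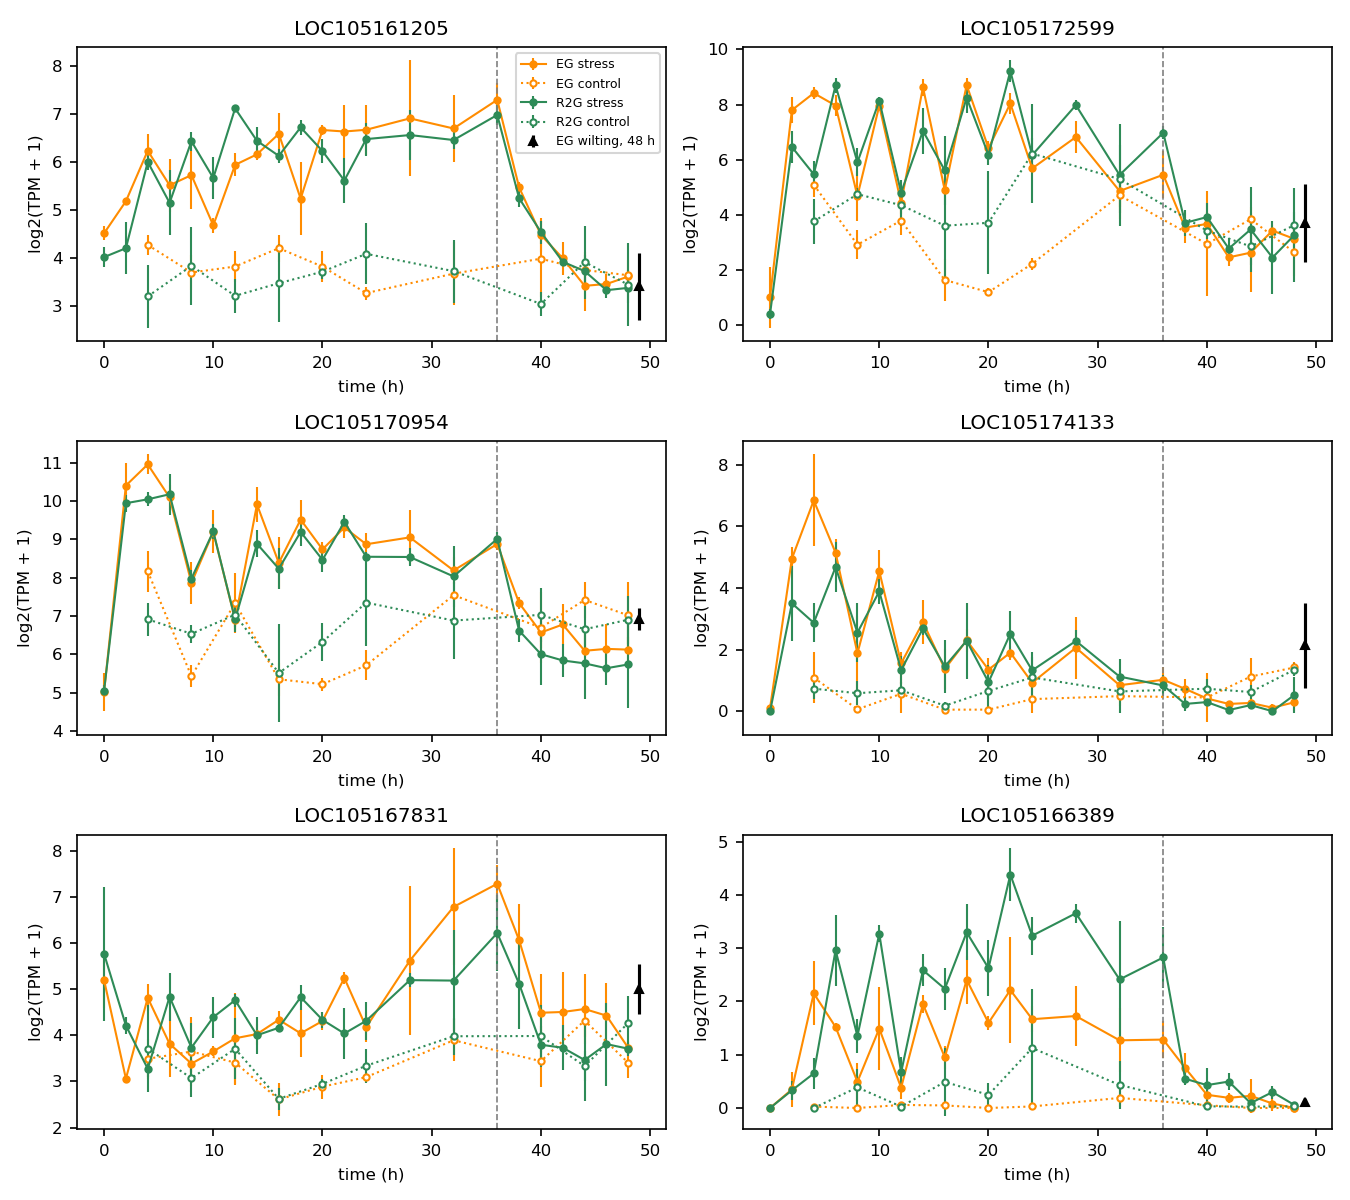
Levels of 6 members as log2(TPM + 1) against time in hours, EG in orange and R2G in green, with filled points for 0 h and the stress series, open points for the control and a black triangle, drawn 1 h to the right, for wilting EG plants at 48 h. Points are means and bars SD of 3 replicates, and the dashed line marks the start of drainage. LOC105172599 moves up and down between neighbouring time points, LOC105174133 is highest in the first hours, LOC105167831 at 36 h, and LOC105166389 is higher in R2G.

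Between 4 and 24 h some members rose and fell from one time point to the next. Time points without a control (6, 10, 14, 18 and 22 h) were set against the mean of the time points 2 h before and after, all of which have one. Averaged over the 5 times, 18 members in EG and 22 in R2G lay at least 1 above their neighbours on the log2 scale (2.64% and 2.36% of all genes), 17 of them in both genotypes, while the median over the members was only 0.06 and 0.04. The excess had the same sign in both genotypes for 85 members. It was below -0.5 in both for 7, with LOC105158648 the lowest in EG at -1.30. It was largest in LOC105172599, at 2.75 in EG and 2.57 in R2G. This gene had a mean of 27.6, 248, 21.1, 402, 28.6, 421 and 85.3 TPM at 8, 10, 12, 14, 16, 18 and 20 h in EG. Of the 17 members with the excess in both genotypes, 15 were called higher at 2 h and 12 called lower at 38 h. For these calls, and for the counts of 17, 85 and 7 in both genotypes, no share over all genes was taken. In drainage, where 42 and 46 h have no control, 1 member in each genotype lay at least 1 above its neighbours (0.534% of all genes in EG and 2.68% in R2G). The labels give no date, order or batch of sampling, and whether these 5 times differed in handling was not tested. W was computed only from the times with a control, where these members were lower than at the times between, and the tests compare times without a control with each other, except for the wilting plants, whose comparator at 46 h has no control while 48 h has one.

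The level of the members was compared between the genotypes. Over the 8 waterlogging time points outside the rule (24 against 24 samples), 1 member was called by limma, LOC105166389, lower in EG (0.446% of all genes called). By limma 0 were called higher (0.616% of all genes), with 24 at an unadjusted p under 0.05 in that direction and 16 in the other. With no limit on the fold, 15 members had an adjusted p under 0.05 and were higher in EG (14.1% of all genes), and 13 were lower (18.5% of all genes). LOC105166389 had a median of 2.08 TPM in EG (0.069 to 8.20) and 8.07 TPM in R2G (0.110 to 27.8). The ranges overlapped, and the difference was -1.30 ± 0.11 on the log2 scale (SE, limma adjusted p = 1.1e-20). In the 30 control samples of each genotype its median was 0 TPM in EG (0 to 0.225) and 0.057 TPM in R2G (0 to 4.28), the latter reaching above the waterlogged median of EG.

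In drainage at 38, 42 and 46 h (9 against 9 samples), 2 members were called higher in EG (1.57% of all genes). By limma 0 were called lower (1.95% of all genes), with 5 at an unadjusted p under 0.05 in that direction and 44 in the other. With no limit on the fold, 30 members had an adjusted p under 0.05 and were higher in EG (11% of all genes), and 3 were lower (22% of all genes). LOC105171780 had a median of 94.9 TPM in EG (18.6 to 279.8) and 21.4 TPM in R2G (11.4 to 156), a difference of 1.24 ± 0.41 (SE, limma adjusted p = 0.014). LOC105175121, on linkage group 12 from 2344799 to 2346588, had 5.23 TPM (3.38 to 7.32) and 2.33 TPM (0.506 to 4.45), a difference of 1.04 ± 0.24 (SE, limma adjusted p = 5.2e-04). In the 30 control samples of each genotype LOC105171780 was also higher in EG, with medians of 24.3 TPM in EG and 12.0 TPM in R2G. LOC105175121 had control medians of 1.47 TPM in EG and 1.67 TPM in R2G. Whether the genotypes differed more in drainage than in control was not tested for these genes. Neither was called without replicate 2, at adjusted p of 0.13 and 0.11, nor LOC105171780 without replicate 3, at 0.067, and the number of members called moved between 0 and 6 as replicates were left out. The members were higher in EG in 70 of 90 cases, by a median of 0.27, against -0.09 over all genes and 0.57 over the 323 genes that stayed raised, of which 73 (22.6%) were called higher in EG.

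The wilting EG plants at 48 h were compared with drained EG plants at 46 h. In this comparison (3 against 3 samples, 48 h being also 2 h later), 2 members were called higher by limma (0.88% of all genes). By limma 0 were called lower (4.78% of all genes), with 2 at an unadjusted p under 0.05 in that direction. LOC105174133, on linkage group 11 from 12088480 to 12090362, had 0, 0.127 and 0.142 TPM at 46 h and 4.22, 9.41 and 0.581 TPM in the wilting plants, a difference of 2.02 ± 0.47 (SE, limma adjusted p = 0.0015). The same gene had 73.0, 373 and 53.5 TPM in EG at 4 h of waterlogging. LOC105172191, on linkage group 10 from 7479812 to 7480547, had 11.8, 32.6 and 20.3 TPM at 46 h and 36.4, 66.8 and 33.3 TPM in the wilting plants, a difference of 1.08 ± 0.30 (SE, limma adjusted p = 0.0078). Both calls rest on a spread shared with all 195 samples, as with the 6 compared samples alone both had an adjusted p of 0.34. LOC105174133 was not called without replicate 2, at 0.076, nor LOC105172191 without replicate 1 or 3, at 0.070 and 0.0996.

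Surviving EG plants at 48 h entered the rule, so the wilting plants are set against them as values only. The median difference, wilting minus surviving, was 0.24 over the members and 0.09 over all genes, and 7 members were at least 1 higher in the wilting plants (3.39% of all genes). The largest differences after LOC105174133, at 2.20, were those of LOC105157214 at 2.15 and LOC105161839 at 1.62.

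The members' profiles were alike to different degrees. Over the 25 conditions that the rule did not use, the correlation of a member with the median of the other members had a median of 0.77 across the 90 genes and ran from 0.022 to 0.94. It was at least 0.8 for 39 members and under 0.3 for 3. LOC105170701 was closest to the common course, at 0.94, followed by LOC105177473 at 0.92 and LOC105176284 at 0.91. These conditions share genotypes and neighbouring times, and the members were chosen for a common course, so the values are a description.

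Several members are neighbours in the genome. On linkage group 1, LOC105159008 (8072573 to 8073346), LOC105158339 (8076797 to 8085840) and LOC105158347 (8087967 to 8088575) follow each other with no gene of the reference between them. Over the 65 conditions the levels of the latter pair had a Pearson correlation of 0.96, and those of the former pair 0.80. LOC105171780 and LOC105171781 on linkage group 10, with 4880 bases between them, LOC105157213 and LOC105157214 on linkage group 3, with 4872 bases, and LOC105163399 and LOC105163401 on linkage group 6, with 4957 bases, are also next to each other, with correlations of 0.77, 0.53 and 0.76. LOC105168644 and LOC105168207 on linkage group 8 lie 21534 bases apart, with 1 gene between them and a correlation of 0.43. The 65 conditions include those that chose the members, so a high correlation is favoured by the choice. No correlation was taken for other pairs of genes, and these values are a description only. The partners did not move alike throughout. LOC105157214 rose 4.93 on the log2 scale from 0 to 2 h, whereas LOC105157213 had a change of -0.27 ± 0.22 (SE, limma adjusted p = 0.24). Whether neighbouring genes share reads cannot be told from TPM, although only uniquely matched reads were counted.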

How the data were processed

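Root RNA of 195 sesame plants was sequenced. As the methods and labels state, the authors cleaned reads with FastQC and Trimmomatic 0.32, mapped them with STAR to genome v1.0, counted unique matches with featureCounts and deposited them as TPM, whose columns summed to between 999096 and 999827. Depth per sample cannot be recovered from TPM, and tests on counts were not run. All columns matched a sample title, and 0 pairs of columns were identical. Of the 20271 identifiers, 20267 matched a symbol of the RefSeq table for S_indicum_v1.0, including all 90 members. Its positions are counted from 1.

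Linear models were fitted with limma 3.58.1 under R 4.3.3, with moderated variances and a mean-variance trend, on log2(TPM + 1) for 18178 genes with a mean of at least 1 TPM, with the 65 conditions as groups and Benjamini-Hochberg adjustment over all genes. A call needs an adjusted p under 0.05 and a log2 fold change of at least 1 in size. Fold changes on this scale understate those of genes with low TPM. The test was run on simulated data with known changes before use. Replicates come from separate pots, sampled as 1 plant each. Summaries were made in Python 3.11.15 with pandas 2.3.3 and figures with matplotlib 3.10.9.

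The members, lists and tests were chosen with earlier results of these data known. Named genes were the 15 with the largest W, up to 5 called members per test and direction, those next to the limits of the rule, neighbours in the genome, and others named after their values were seen. Gene lists by product name and by protein or promoter sequence were not used here, as the table holds neither. Alternatives were a pseudocount of 0.1, no filter, median-ratio scaling, the replicate number as a block, only the compared samples, and each replicate left out.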

Additional observations from a re-analysis of the deposited data

Results flagged for a closer look

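The fall of LOC105166389 from 36 to 38 h differed between EG and R2G by a test of the difference itself, with a value of 1.74 on the log2 scale, EG minus R2G. The gene was low in both genotypes, at a mean of 1.48 TPM in EG and 6.48 TPM in R2G at 36 h.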

How the results depend on the processing

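Values in TPM carry no depth, so how far counting error bears on members below a few TPM is unknown. With a pseudocount of 0.1, 0 members differed between genotypes at the drainage step (5 at an unadjusted p under 0.05) and 7 between genotypes in drainage. With only the compared samples in the fit these were 0 for the step (7 at an unadjusted p under 0.05) and 0 for the wilting plants (12). Median-ratio scaling raised the members called between 0 and 2 h from 41 to 63, and the genes meeting the rule from 90 to the upper limit of 300, or 399 without that limit. It moved the median of all genes from 0.34 to -0.03 for 36 to 38 h and from -0.51 to -0.04 for 0 to 2 h. The cause of the other moves was not tested.

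With one replicate left out, the members called numbered 48 to 49 for 36 to 38 h, 0 to 0 for its difference between genotypes, 41 to 44 for 0 to 2 h, 1 to 1 for the genotypes under waterlogging, 0 to 6 for the genotypes in drainage and 1 to 4 for the wilting plants, and 79 to 117 genes met the rule, with 66, 82 and 76 of the 90 members among them without replicate 1, 2 and 3. The genotype calls in drainage were 6 without replicate 1, 0 without replicate 2 and 3 without replicate 3. Fits with 2 replicates have fewer samples. With the replicate number as a block, the counts of members called were 50, 1, 41, 1, 2 and 2 in the order of the tests, as without it. Same-numbered samples of 36 and 38 h had correlated deviations of 0.25, 0.25 and -0.12 in EG and 0.35, 0.29 and -0.15 in R2G, so the numbers were not taken as pairs. For single named genes, 131 recomputed values kept their call and 13 lost it, with 0 changes of direction.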
